A study of Mus musculus with 8 samples.

Results

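The transcripts of 10 keratin genes (Krt77, Krt78, Krt12, Krt80, Krt1, Krt10, Krt2, Krt79, Krt23 and Krt76) were followed in dorsal skin of mouse embryos that lack or carry the glucocorticoid receptor (GR). The genes were chosen by name, as keratins of the suprabasal epidermis plus keratins known from other epithelia, and with their log2 differences between the genotypes in this same comparison known. Every probe set annotated to 1 of these symbols alone was read, which gave 11 probe sets for 10 genes out of 45037 probe sets and 18194 genes in the table. Krt12 had 2 probe sets and the others had 1 each. For Krt12 the brighter on average over the 8 arrays stood for the gene, a choice that does not use genotype.

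The GR-/- group held 4 arrays with label numbers 5, 17, 25 and 26, and the GR+/+ group held 4 with label numbers 4, 6, 28 and 29. Both groups were B6D2/F1 embryos at E18.5, delivered by caesarean section and called littermates. GR is encoded by Nr3c1, and the disrupted allele is not named in the sources used here. Whether every array is a separate animal is not stated, so the p-values measure the spread between these samples, which may be technical. The question was which transcripts of developing skin depend on the receptor just before birth. All values are log2 expression values made by the authors with RMA. It corrects background, gives the probe intensities of all arrays the same distribution and then condenses each set's probes into 1 value.

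Keratins are the intermediate filament proteins of epithelial cells. A filament needs a type I and a type II keratin in partnership, and the pair changes as a cell moves outward: Krt5 with Krt14 in the basal layer, Krt1 with Krt10 in the spinous and granular layers. Other type II keratins join the main pair at particular layers or body sites. Glucocorticoids are known to speed the maturation of fetal skin and of its barrier.

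The arrays did not stand equally apart by genotype. On the first principal component, which held 44.2% of the variance over all probe sets, GR-/- 5, 25 and 26 lay between -61.3 and -25.0 and the GR+/+ arrays between 13.6 and 42.3, while GR-/- 17 lay at 7.96 on the GR+/+ side. GR-/- 17 and GR+/+ 6 were also the 1 array of each group with a low mean of the Y-linked genes Eif2s3y and Kdm5d, 3.32 and 3.41 against 8.43 to 8.94 in the others. Nr3c1 read 7.66, 8.01, 8.19 and 7.97 log2 in GR-/- 5, 17, 25 and 26 at its second brightest probe set, against 9.93, 9.68, 9.74 and 9.92 in GR+/+ 4, 6, 28 and 29. At its brightest probe set the groups also lay apart but the difference was smaller, -0.84 log2 beside -1.86 at the second brightest. The labels and both probe sets therefore run the same way in all 8 arrays. Of the 6 Nr3c1 probe sets 3 separated the genotypes like this and 3 overlapped, and where each lies relative to the disrupted part is not known here. Epidermal and dermal markers were high in both groups: the basal list (7 genes, Krt5 and Krt14 among them) averaged 11.14 to 11.45 in GR-/- arrays and 10.84 to 11.22 in GR+/+ arrays, and the 7 fibroblast markers averaged 13.38 to 13.63 in GR-/- arrays and 13.38 to 13.60 in GR+/+ arrays.

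The stretches of 250 bases just before the annotated starts of 4 of these genes are shown because they belong to the 3 keratins with the largest differences and to Krt76, the direct neighbour of Krt77. They are RefSeq sequence of build GRCm38.p6, read 5′ to 3′ along the gene. Of the 10 genes, 8 were found in the promoter table. Capitals mark matches to the motifs searched.
Krt77, chr15:101869706-101869955, minus strand: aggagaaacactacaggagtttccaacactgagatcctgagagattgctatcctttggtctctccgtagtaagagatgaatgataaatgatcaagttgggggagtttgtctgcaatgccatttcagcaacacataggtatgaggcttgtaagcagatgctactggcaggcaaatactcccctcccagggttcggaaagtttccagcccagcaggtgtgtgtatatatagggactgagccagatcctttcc
Krt76, chr15:101892921-101893170, minus strand: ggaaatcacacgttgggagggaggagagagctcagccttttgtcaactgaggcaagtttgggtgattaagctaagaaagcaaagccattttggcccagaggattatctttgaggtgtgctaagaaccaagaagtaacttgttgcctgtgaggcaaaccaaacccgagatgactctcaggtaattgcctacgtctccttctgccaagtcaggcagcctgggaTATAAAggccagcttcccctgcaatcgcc
Krt78, chr15:101954288-101954537, minus strand: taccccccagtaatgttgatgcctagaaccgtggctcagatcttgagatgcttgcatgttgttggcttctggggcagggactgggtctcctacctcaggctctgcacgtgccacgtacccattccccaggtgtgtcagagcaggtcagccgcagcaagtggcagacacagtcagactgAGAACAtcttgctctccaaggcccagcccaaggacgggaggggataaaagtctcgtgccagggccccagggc
Krt12, chr11:99422260-99422509, minus strand: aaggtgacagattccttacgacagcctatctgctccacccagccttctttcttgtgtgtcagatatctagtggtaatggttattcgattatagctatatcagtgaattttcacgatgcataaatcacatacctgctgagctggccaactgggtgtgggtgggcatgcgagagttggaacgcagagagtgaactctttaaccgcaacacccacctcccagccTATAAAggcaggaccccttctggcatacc
Searched on both strands were the glucocorticoid response element palindrome (AGAACA, 3 free bases, TGTTCT), its half-site TGTTCT, the AP-1 site TGANTCA, the ETS site AGGAAG and the TATA box TATAAA. The half-site is contained in the palindrome. The palindrome stood in 0.00913% of 32851 promoter stretches of this length and in none of the 8 keratin stretches. A half-site stood in 1 of the 8, that of Krt78, where it runs from 72 to 67 bases before the start on the opposite strand, and it stood in 16.1% of all stretches. TATAAA stood in 3 of the 8, 29 to 24 bases before the start of Krt12 and of Krt76 and 26 to 21 before that of Krt10, and in 12.4% of all stretches. No AP-1 or ETS match was found in the 8, against 6.75% and 29.5% of all stretches. A match describes letters in this window only.

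In GR-/- skin Krt77 and Krt80 were higher, Krt78 and Krt12 were lower, and the other 6 keratins were not past the threshold, among them the main suprabasal pair Krt1 and Krt10. Limma, with Benjamini-Hochberg adjustment over all 18194 genes and a threshold of 0.05, thus called 2 of the 10 higher and 2 lower. Of all genes, 1.40% were called higher and 1.56% lower, or 2.96% in either direction. Because the 10 were chosen with this contrast known, their count and adjusted p-values are descriptions, and nothing is read from the count against that background. By size of the log2 fold change, Krt77 ranked 4 among all rises, Krt80 ranked 25, and among all falls Krt12 ranked 2 and Krt78 ranked 15. In 4 of the 10 no GR-/- value overlapped the GR+/+ values, 1 of them higher (Krt77) and 3 lower (Krt78, Krt12 and Krt1). Over the 18194 genes, groups lay apart in this way in 13.0%, made up of 6.69% higher and 6.30% lower. The median over the 10 was -0.018 log2, beside -0.0045 over all genes.

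**Figure D1:**
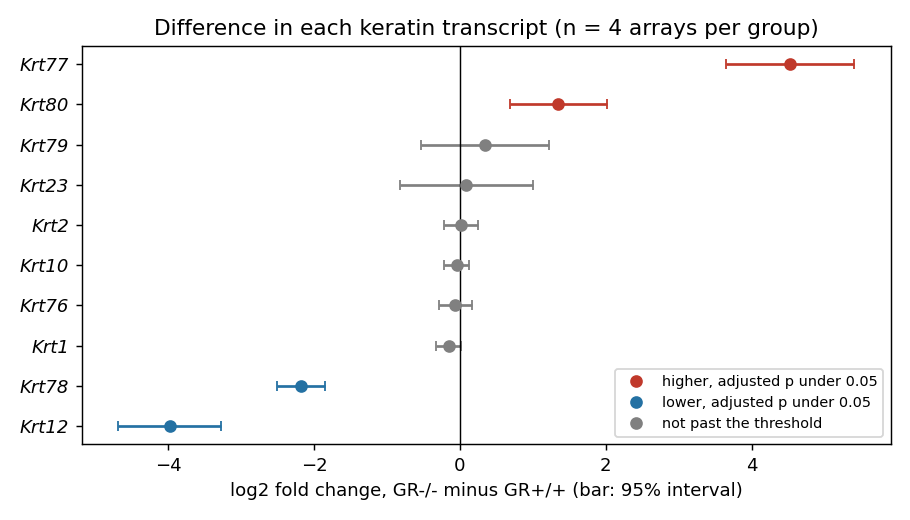
The log2 fold change (x axis, GR-/- minus GR+/+) of each of the 10 keratin genes (rows), with a 95% interval from the limma fit (bars, n = 4 arrays per group). Krt77 and Krt80 lie right of 0, Krt78 and Krt12 lie left of it, and the intervals of the other 6 include 0.

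Krt77, a type II keratin also called K1b and known in human skin from sweat gland ducts, showed the largest rise of the 10. It read 13.87, 12.52, 13.95 and 14.04 log2 in GR-/- 5, 17, 25 and 26, against 8.17, 9.39, 9.26 and 9.47 in GR+/+ 4, 6, 28 and 29. The lowest GR-/- array thus lay well above the highest GR+/+ array. The means were 13.59 ± 0.72 in GR-/- and 9.07 ± 0.61 in GR+/+ skin (SD, n = 4 each), and Krt77 rose by 4.52 ± 0.39 log2 (SE), 23.0-fold, with limma's adjusted p = 0.00171. Each group held 1 array apart from the rest, GR-/- 17 below the other GR-/- arrays and GR+/+ 4 below the other GR+/+ arrays. Without GR-/- 17 the difference was 4.88, and without any single array it stayed between 4.22 and 4.88. The SD of Krt77 within genotypes was larger than that of 99.0% of all genes, so its arrays also varied widely among themselves.

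Krt1, the main type II keratin of the spinous layer, is the neighbour of Krt77 on chromosome 15. It read 14.47, 14.33, 14.54 and 14.52 log2 in GR-/- 5, 17, 25 and 26, against 14.61, 14.55, 14.70 and 14.61 in GR+/+ 4, 6, 28 and 29. Every GR-/- value was below every GR+/+ value, but the difference was small, -0.15 ± 0.076 log2 (SE, 95% interval -0.32 to 0.018, limma's adjusted p = 0.283). Krt10, its type I partner, read 14.71, 14.57, 14.74 and 14.75 in the GR-/- arrays and 14.76, 14.64, 14.80 and 14.75 in the GR+/+ arrays, in the same order. The groups of Krt10 overlapped, and its difference was -0.046 (95% interval -0.22 to 0.12, adjusted p = 0.791). Layer markers were called in both directions. Of 7 basal markers 2 were higher, the collagen gene Col17a1 (0.59) and the transcription factor gene Trp63 (0.60). The other 5, Krt5 (-0.14) and Krt14 (-0.20) among them, missed the threshold. Of 10 spinous and granular markers 2 were lower, the envelope gene Lor (-0.48) and Cdsn (-1.5), and 8 missed the threshold. Of all genes, 1.40% were called higher and 1.56% lower. The part of the layer markers in the keratin differences was not tested. Krt1 and Krt10 lay near the top of the scale, whose highest value on any array was 15.06, where RMA values can compress differences.

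Krt2 and Krt76, on either side of Krt1 and Krt77, gave values at the dim end. Krt2, known from the upper suprabasal layers and in mice mostly from ear, tail and footpad skin, lay between 3.73 and 4.2 log2 in GR-/- arrays and between 3.87 and 4.0 in GR+/+ arrays. Its difference was 0.010 (95% interval -0.22 to 0.24). Krt76, known from the palate and the mouth lining, lay between 4.95 and 5.06 in GR-/- arrays and between 4.87 and 5.31 in GR+/+ arrays, with a difference of -0.061 (95% interval -0.29 to 0.17). For both genes the groups overlapped, and the adjusted p was 0.973 for Krt2 and 0.799 for Krt76. The lowest value on any array was 2.98. No detection calls were used here, so whether these 2 signals stood above background is unknown, and the Krt76 probe set is of the kind (_x_at) that can take up related transcripts.

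Krt78, a type II keratin of suprabasal epidermal cells, was lower in every GR-/- array. It read 8.83, 8.81, 8.93 and 9.11 log2 in GR-/- 5, 17, 25 and 26, against 11.10, 10.77, 11.48 and 11.04 in GR+/+ 4, 6, 28 and 29. The GR-/- arrays lay within 0.30 log2 of each other and the GR+/+ arrays within 0.72. Krt78 fell by 2.18 log2 with an SE of 0.15, that is 4.52-fold, with limma's adjusted p = 0.000663. GR-/- 17, which lay apart for Krt77, did not lie apart here, and without any single array the difference stayed between -2.29 and -2.05.

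Krt80, a type II keratin known to lie near the desmosomes at the cell edge, rose less. It read 10.48, 9.44, 10.74 and 10.43 log2 in GR-/- 5, 17, 25 and 26, against 8.80, 8.47, 9.45 and 8.97 in GR+/+ 4, 6, 28 and 29. The groups touched: GR-/- 17 lay just below GR+/+ 28, and the other GR-/- arrays lay above all GR+/+ arrays. Krt80 rose by 1.35 ± 0.29 log2 (SE, n = 4 per group), 2.55-fold, with limma's adjusted p = 0.0462. Without GR-/- 17 the rise was 1.63 with adjusted p = 0.0063, and without any other single array the call ended, with adjusted p from 0.0653 to 0.137.

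Krt12, the type I keratin that marks corneal epithelium, was measured in dorsal skin at 2 probe sets, and both were lower in every GR-/- array. At the brighter it read 4.37, 4.58, 4.82 and 4.78 log2 in GR-/- 5, 17, 25 and 26, against 8.28, 8.44, 9.67 and 8.04 in GR+/+ 4, 6, 28 and 29. At the other it read 4.64, 4.54, 4.84 and 4.54 in the GR-/- arrays and 7.59, 8.14, 9.30 and 7.13 in the GR+/+ arrays, in the same order. The GR-/- values lay close together near the dim end of the scale, and GR+/+ 28 was highest at both probe sets. Krt12 fell by 3.97 log2 with an SE of 0.31, that is 15.7-fold, with limma's adjusted p = 0.00111 over genes. The other probe set fell by 3.40 ± 0.39, with adjusted p = 0.00823 over all 45037 probe sets, of which 3.85% were called, and in all 5 of the 11 keratin probe sets were called. Whether this GR-/- signal stood above background is unknown, and if it did not, these falls and folds are set by that floor and not by the transcript's own level. The brighter set (_s_at) can take up related transcripts and the other is not of that kind.

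Other markers of corneal epithelium were read beside Krt12. Pax6, the eye transcription factor, averaged 5.79 log2 in GR-/- and 5.85 in GR+/+ skin, and the corneal dehydrogenase gene Aldh3a1 averaged 3.67 in both. Of 7 corneal markers listed besides Krt12, 6 were measured, and 1 of them, the secreted chaperone gene Clu, which many tissues express, was called lower (-0.80 ± 0.15 log2, adjusted p = 0.0303). Of all genes, 1.56% were called lower. The mean of the 6 corneal markers lay between 7.58 and 8.33 in GR-/- arrays and between 7.92 and 8.37 in GR+/+ arrays. Of the markers of sweat gland and other gland ducts, the site where human KRT77 is known, 9 of 9 were measured, 4 of them keratins, and 0 were called by limma, with 0 higher and 2 lower at an unadjusted p below 0.05, beside 21.6% of all genes. Their mean lay between 6.07 and 6.78 in GR-/- arrays and between 6.07 and 6.85 in GR+/+ arrays. Whether this skin held gland ducts is not known here, and their part in the Krt77 difference was not tested.

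Krt79, a type II keratin of the upper hair follicle and the duct of the sebaceous gland, set 1 array apart. It read 9.98, 11.40, 10.0046 and 9.21 log2 in GR-/- 5, 17, 25 and 26, against 9.60, 10.08, 9.64 and 9.91 in GR+/+ 4, 6, 28 and 29. GR-/- 17 was the highest and GR-/- 26 the lowest of all 8, so the GR+/+ values lay inside the GR-/- range. The difference was 0.34 ± 0.39 log2 (SE, 95% interval -0.53 to 1.22, limma's adjusted p = 0.679), and without GR-/- 17 it was -0.076. In GR-/- 17 the 11 measured hair follicle markers averaged 9.68, against 6.96 to 7.56 in the other GR-/- arrays and 7.11 to 7.32 in GR+/+ arrays. The part of follicle content in the Krt79 value was not tested. Of the sebaceous gland and infundibulum markers 9 of 12 were measured, 0 were called by limma (2 higher and 1 lower at an unadjusted p below 0.05, beside 21.6% of all genes), and their mean was 8.09 in GR-/- 17 against 7.85 to 8.0 in the other GR-/- arrays and 7.88 to 8.12 in GR+/+ arrays.

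Krt23, a type I keratin best known from internal epithelia, ran the other way in the same array. It read 11.19, 9.44, 11.46 and 10.94 log2 in GR-/- 5, 17, 25 and 26, against 10.54, 10.49, 11.23 and 10.42 in GR+/+ 4, 6, 28 and 29. GR-/- 17 was the lowest of all 8 and GR-/- 25 the highest, and the groups overlapped. The difference was 0.087 ± 0.40 log2 (SE, 95% interval -0.82 to 0.996, limma's adjusted p = 0.937). Without GR-/- 17 it was 0.53 with adjusted p = 0.157. Krt79 and Krt23 both had an SD within genotypes above that of 99.0% of all genes, which leaves their intervals wide.

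**Figure D2:**
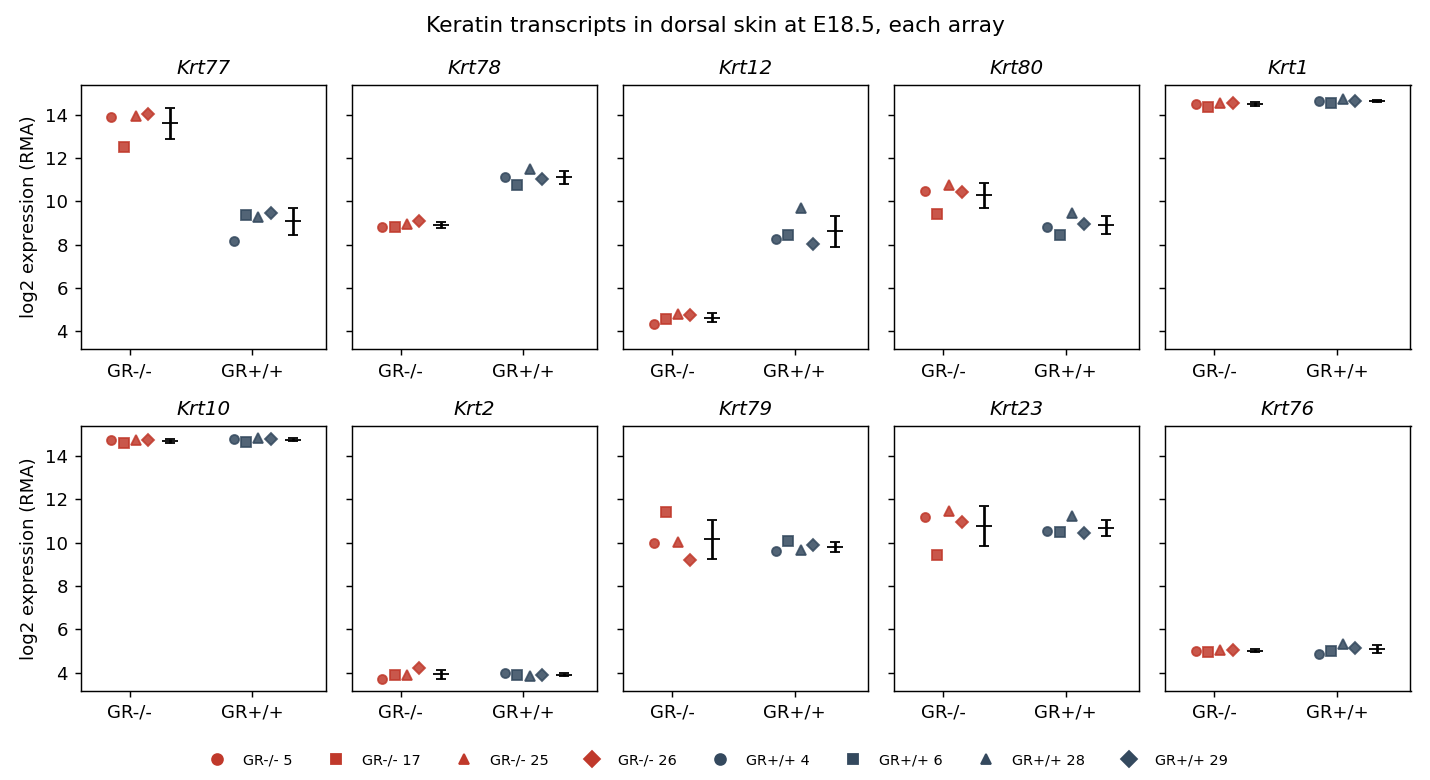
Log2 expression (RMA, y axis) of the 10 keratin genes, 1 panel each, in 4 GR-/- arrays (red, left) and 4 GR+/+ arrays (dark blue, right). Symbols stand for arrays, and the bar beside each group is its mean ± SD. The Krt77, Krt78 and Krt12 groups lie apart, while in the Krt77, Krt80 and Krt23 panels GR-/- 17 (square) lies below the other GR-/- arrays and in the Krt79 panel it is the highest point.

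Single arrays stood at the ends of their group for most of the 10 keratins. GR-/- 17 was the lowest of its group for 7 of the 10 (Krt77, Krt78, Krt80, Krt1, Krt10, Krt23 and Krt76) and the highest for 1, Krt79. GR-/- 5 was the lowest for Krt12 and Krt2, and GR-/- 26 for Krt79. Over all genes GR-/- 17 was the lowest for 32.7%. Its largest departures from the GR-/- mean were -1.32 log2 for Krt23, 1.25 for Krt79, -1.08 for Krt77 and -0.84 for Krt80. In the GR+/+ group, GR+/+ 28 was the highest for 7 of the 10 (Krt78, Krt12, Krt80, Krt1, Krt10, Krt23 and Krt76), and it was the highest for 23.7% of all genes. These are counts over genes of the same arrays, which are not independent.

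Krt78, Krt1, Krt10 and Krt80 were lowest in GR-/- 17 and in GR+/+ 6, and Krt79 was highest in both. These are the arrays of each group with low Y-linked values. With 1 such array per group, a Y-linked covariate is nearly balanced between genotypes and can hardly move their difference. With the Y-linked mean as a covariate, the log2 fold changes were -2.16 for Krt78, 1.38 for Krt80, 0.30 for Krt79, -0.15 for Krt1 and -0.040 for Krt10, close to those without it. GR-/- 17 differed from the other GR-/- arrays in tissue markers too. Its mean over 20 skeletal muscle markers was 11.58, against 10.69 to 11.03 in the other GR-/- arrays and 11.57 to 11.69 in GR+/+ arrays, and its mean over the 10 measured spinous and granular markers was 11.62, against 12.15 to 12.46 in the other GR-/- arrays and 12.27 to 12.72 in GR+/+ arrays. In whole skin, fewer cells of a type and less RNA per cell cannot be told apart.

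**Figure D3:**
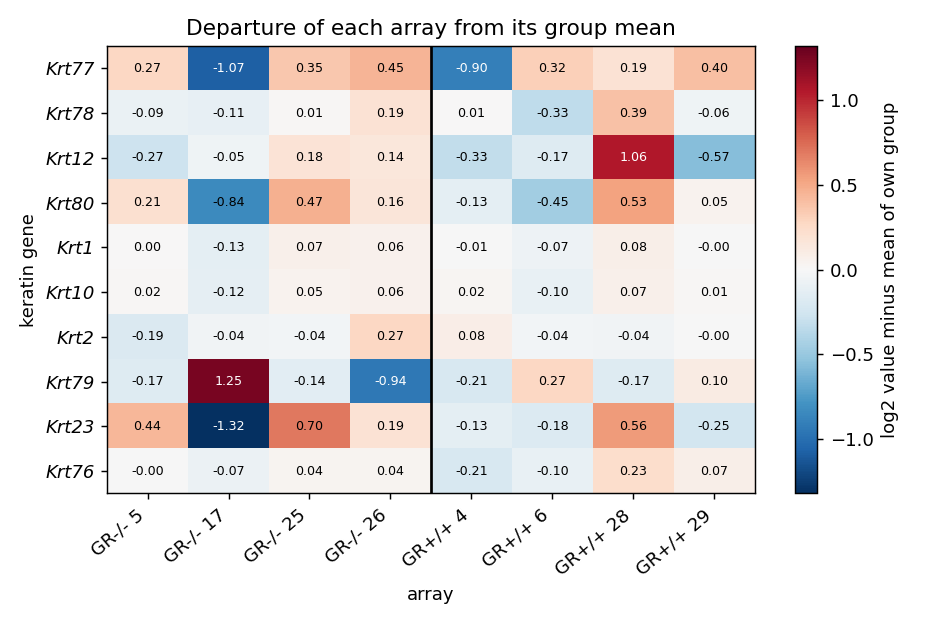
Log2 value minus the mean of the array's own group (colour and printed number) for each keratin gene (rows) on each array (columns), GR-/- left of the line and GR+/+ right of it. Red is above the group mean and blue below it: the GR-/- 17 column is blue for Krt77, Krt80 and Krt23 and red for Krt79, and the GR+/+ 28 column is red for Krt12, Krt80 and Krt23.

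With the mean of the skeletal muscle markers as a covariate, Krt77 rose by 3.65 log2 (adjusted p = 0.038), Krt78 fell by 2.27 (adjusted p = 0.0225) and Krt12 fell by 4.02 (adjusted p = 0.0357). Krt80 was at 0.62 with adjusted p = 0.571, and Krt23 at -1.12 with adjusted p = 0.329. Krt79 was at 1.48 with adjusted p = 0.208. That fit leans on GR-/- 17, the GR-/- array with the GR+/+ level of muscle markers, so muscle content and that array cannot be told apart in it.

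No called keratin lay directly beside another called one in the keratin clusters. In mouse the type II genes lie on chromosome 15 with the type I gene Krt18, and the other type I genes on chromosome 11. Of the 26 keratin genes listed in the chromosome 15 cluster 24 were measured, with 2 called higher and 1 lower, and of 27 on chromosome 11 24 were measured, with 0 higher and 1 lower. The 4 called genes were all among the 10 chosen with this contrast known, so these counts restate that choice. Of all genes, 1.40% were called higher and 1.56% lower. In RefSeq order Krt77 lies between Krt1 and Krt76, whose log2 fold changes were -0.15 and -0.061 beside 4.52 for Krt77. Krt78 lies between Krt79 (0.34) and the simple-epithelium keratin gene Krt8 (-0.75, adjusted p = 0.104), beside -2.18 of its own. Krt12 lies between Krt10 (-0.046) and the gut keratin gene Krt20 (-0.083), beside -3.97. Krt80, at the end of its cluster, has Krt7 as its neighbour (-0.95 ± 0.78, adjusted p = 0.542). The remaining measured direct neighbours also missed the threshold: Krt73 at 0.88, Krt4 at 0.35 and Krt28 at 0.93. Krt39, beside Krt23, was not measured.

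**Figure D4:**
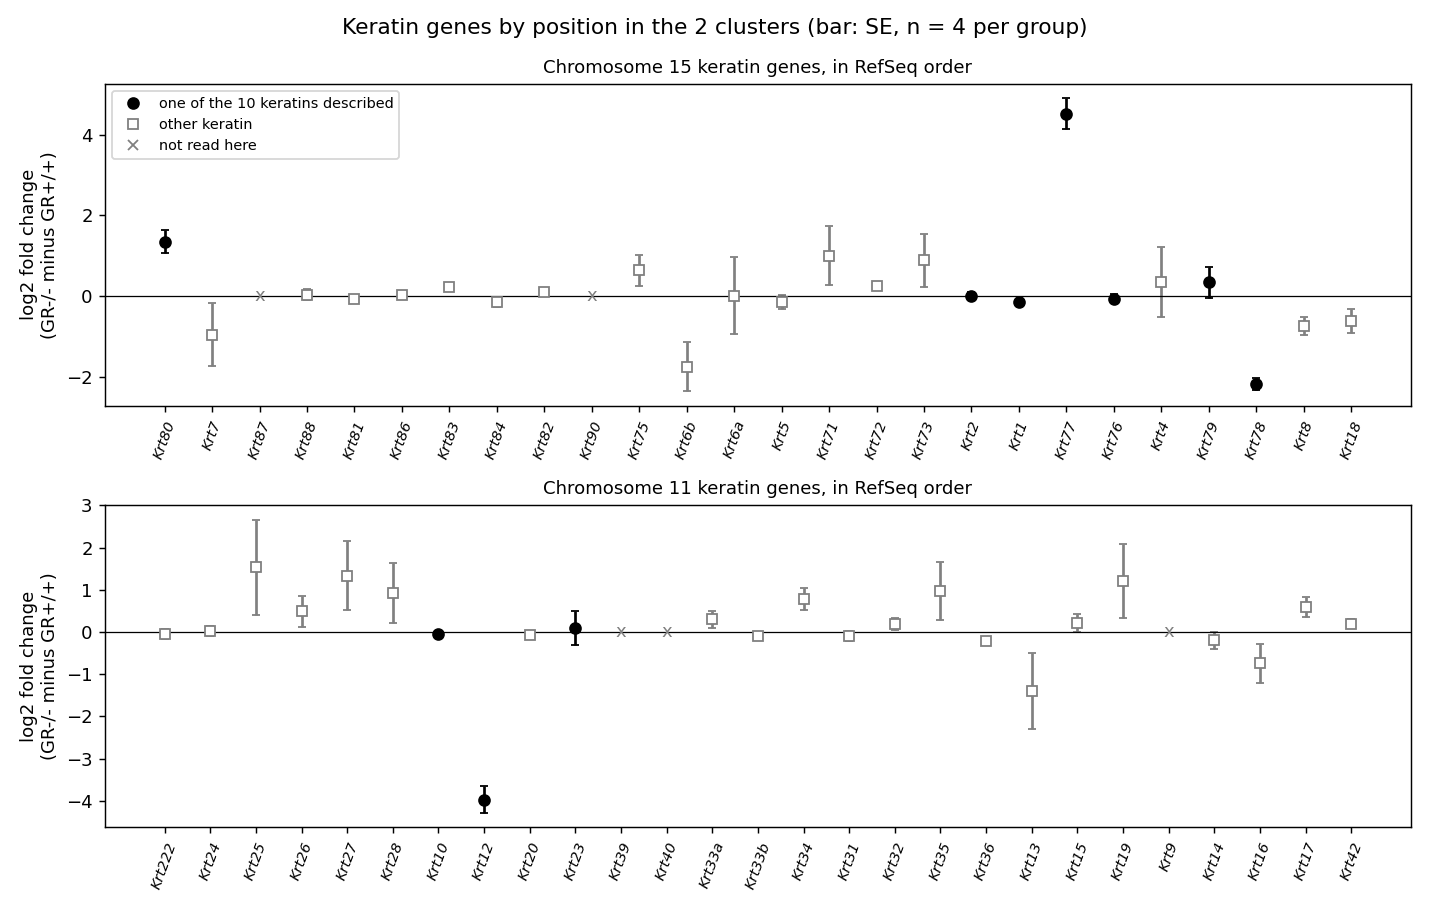
Log2 fold change (y axis, GR-/- minus GR+/+, bar: SE, n = 4 per group) of the keratin genes in their RefSeq order (x axis, order only) on chromosome 15 (upper panel) and chromosome 11 (lower panel). Filled circles are the 10 keratins described, open squares are other keratins and crosses mark genes with no value here. Krt77 and Krt78 stand out on chromosome 15 and Krt12 on chromosome 11, each beside neighbours nearer 0.

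Of the 38 other keratins measured, limma called 0, with 4 higher and 3 lower at an unadjusted p below 0.05, a level that 21.6% of all genes passed. Their log2 fold changes ran from -1.75 for the wound-associated keratin Krt6b to 1.53 for the hair sheath keratin Krt25, with a median of 0.063 beside -0.0045 for all genes. The smallest p-values were those of Krt8 (-0.75 ± 0.23 log2, adjusted p = 0.104) and of the inner root sheath keratin Krt72 (0.24 ± 0.079, adjusted p = 0.126). The basal pair, chosen after its values were seen, was at -0.14 for Krt5 and -0.20 for Krt14, with adjusted p of 0.691 and 0.618. Without GR-/- 17, 3 were called: Krt6b (-2.35) and Krt16 (-1.21) lower and the hair keratin Krt34 (1.0) higher, in a fit that called 9.01% of all genes. Without GR+/+ 4, Krt8 was called lower (-0.97), in a fit that called 1.62%.

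Filament partners and upstream regulators were read beside the keratins. Of 20 measured genes for anchoring and bundling filaments (desmosome proteins, plakins and filaggrin-like proteins), limma called 2 lower and 0 higher. Of all genes, 1.56% were called lower and 1.40% higher. The other 18 of the list missed the threshold, and the median over all 20, the called ones included, was -0.057 log2. The filament-bundling protein filaggrin (Flg) of granular cells read 10.28, 11.66, 11.37 and 9.37 log2 in GR-/- 5, 17, 25 and 26, against 13.08, 12.67, 13.45 and 12.89 in GR+/+ 4, 6, 28 and 29. It fell by 2.35 ± 0.45 (limma's adjusted p = 0.0339), and the envelope protein repetin (Rptn) fell by 3.86 ± 0.60 (adjusted p = 0.0174). The groups did not overlap for either, and Rptn in GR-/- arrays also lay near the dim end of the scale (3.54 to 4.03), so its fall has the same limit as that of Krt12. Desmoplakin (Dsp), which ties keratins to desmosomes and is named after its values were seen, was at 0.00030 log2.

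Of 39 measured regulators of suprabasal differentiation, limma called 2 higher and 2 lower, beside 1.40% and 1.56% of all genes. The other 35 missed the threshold, and the median over all 39, the called ones included, was 0.048 log2. Elf5, an ETS factor of epithelia, rose by 3.33 ± 0.38 log2 (adjusted p = 0.00617), and the Krüppel-like factor gene Klf5 rose by 0.83 ± 0.17 (adjusted p = 0.0382). Ehf, another epithelial ETS factor, fell by 1.13 ± 0.23 (adjusted p = 0.0375). Elf5 in GR+/+ arrays (4.64 to 5.03) and Ehf in GR-/- arrays (4.27 to 4.96) lay near the dim end of the scale. Their differences thus have the same limit as that of Krt12. The remaining call, Cdsn (-1.5 ± 0.21, adjusted p = 0.0128), encodes the adhesion protein corneodesmosin and regulates no transcription. Over both lists 6 genes were called, 14 without GR-/- 17 and 2 without GR-/- 5 or GR-/- 25. Without GR+/+ 4, 28 or 29 there were 3. The share of all genes called moved too, from 2.96% with all arrays to 9.01% without GR-/- 17. It was 1.02% without GR-/- 5, 0.434% without GR-/- 25 and 0.572% to 1.62% without GR+/+ 4, 28 or 29.

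By the distance between log2 values centred on their own mean over the 8 arrays, the gene nearest to Krt77 was Elf5, at 1.99 against a median of 6.61 over all genes. Elf5 read 8.12, 6.86, 8.59 and 8.97 log2 in GR-/- 5, 17, 25 and 26, against 4.64, 5.03, 4.83 and 4.70 in GR+/+ 4, 6, 28 and 29, so GR-/- 17 was its lowest GR-/- array as well. The next were Far2, a fatty acyl reductase gene, at 3.60, the unnamed transcript 2310079G19Rik at 3.68 and the envelope gene Lce3f at 3.78. In these 3, GR-/- 17 lay within or just above the range of the GR+/+ arrays, unlike Krt77, and none of the 3 was past the threshold. Nearest to Krt78 were Adh6b (0.60), the GR co-chaperone gene Fkbp5 (0.63), the serpin gene Serpinb6c (0.66) and the transcriptional repressor gene Gfi1 (0.85), against a median of 3.15. Nearest to Krt12 were the small proline-rich gene Sprr2d (1.10), the mast cell receptor gene Mrgprb1 (1.57), Rptn (1.61) and the carboxylesterase gene Ces2f (2.02), against a median of 5.78. The distance is set mostly by the difference between genotypes and is a description over 8 arrays.

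**Figure D5:**
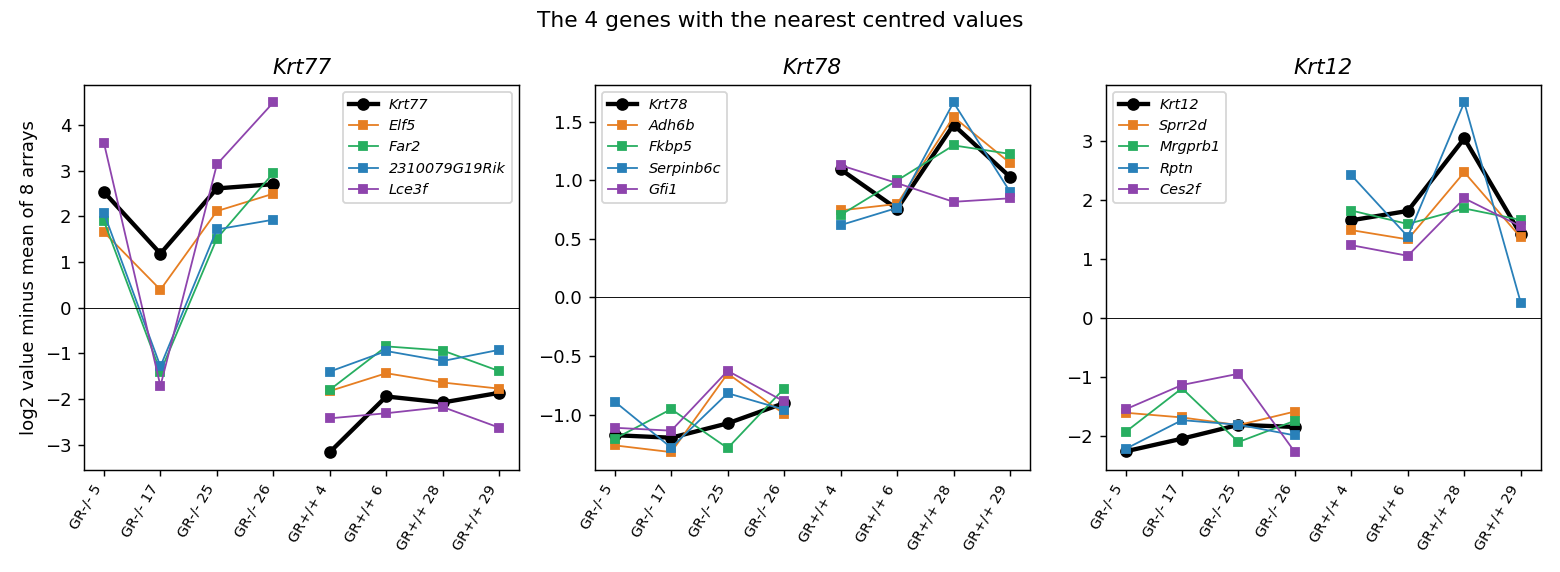
Log2 value minus the gene's mean over the 8 arrays (y axis) on each array (x axis, GR-/- left, GR+/+ right) for Krt77, Krt78 and Krt12 (black) and the 4 genes nearest to each (colours). Lines only join the arrays of a group for the eye. In the Krt77 panel Elf5 keeps to Krt77 in GR-/- 17, while Far2, 2310079G19Rik and Lce3f drop to or near the GR+/+ level there.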

How the data were processed

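The deposited table holds 1 log2 value for each probe set and array, computed by the authors with RMA per the submitters' processing notes. Its version and any filter were not stated there. RMA equalises the probe intensities of the arrays, so a shift of most transcripts could not be seen. The precision is limited by the number of arrays, 4 per genotype. After 64 control probe sets were left out, 45037 were fitted with limma 3.58.1 in R 4.3.3 (lmFit with genotype as the single term, eBayes with the default prior over all probe sets, two-sided). P-values were adjusted by Benjamini-Hochberg over all probe sets, or over 18194 genes at the brightest probe set annotated to each gene alone, with a threshold of 0.05. On simulated arrays, averaged over 5 runs, the gene-level fit of this comparison recovered 44.8% of genes shifted by 0.5 log2 and 89.2% of those shifted by 1. The simulated noise was independent between probe sets and held no effect shared within an array, so these shares may not hold for the real arrays. The keratins, lists and tests were chosen with earlier results of these data known. Named genes were the 10 keratins, Nr3c1, keratins past the threshold or, with none, the 2 of smallest p, direct neighbours of the 10, up to 4 called genes per list and the 4 nearest genes for Krt77, Krt78 and Krt12; others are said to have been chosen after their values were seen. Motif and promoter sequence came from RefSeq (GRCm38.p6). The alternatives tried were a filter on dim genes, a second round of quantile normalization, other variance priors, array weights, covariates, a threshold of 0.01, other probe set choices and leaving out each array.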

Additional observations from a re-analysis of the deposited data

Results flagged for a closer look

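Among 22 sets of 4 arrays (11 keratin probe sets in each genotype), 3 held an array whose gap to the nearest of the others, as a share of the set's whole range, passed Dixon's 95% critical value for 4 values. The shares were 88.7%, 83.8% and 85.8% in the order below, and the next largest was 77.9%. Chance alone flags about 1 in 20 sets. For Krt77, GR-/- 17 read 12.52 log2, against 13.87 to 14.04 in the other GR-/- arrays. In GR+/+ skin, Krt77 read 8.17 in GR+/+ 4, against 9.26 to 9.47 in the other GR+/+ arrays. For Krt23, GR+/+ 28 read 11.23, against 10.42 to 10.54 in the other GR+/+ arrays.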

How the results depend on the processing

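With adjustment over genes, Krt77 and Krt78 kept direction and call in all 17 refits, and Krt12 in the 16 that read it. The filter on dim genes leaves Krt12 out. Krt80 kept its direction in 17 refits and lost its call in 9. At a threshold of 0.01 Krt80 was lost too, and the other 3 were still called. Without 1 array each, 1 to 2 of the 10 keratins were called higher, 2 lower in every fit, 4 to 5 of the 11 probe sets, 0 to 3 other keratins and 2 to 14 filament and regulator genes. Over all genes these fits called 19 to 692 higher, the lowest without GR-/- 25 and the highest without GR-/- 17, and 60 to 948 lower. Krt80 was not called with a further quantile normalization (1 keratin higher, adjusted p = 0.0509) or at a threshold of 0.01, where 13 genes were higher and 33 lower, 1 of the 10 higher and 1 filament or regulator gene called. The filter on dim genes tested 9097 genes and called 398 higher and 355 lower, or 8.28%. It called 1 of the 10 lower, Krt78, with Krt12 left out by the filter. Array weights called 882 higher, 1062 lower, 2 other keratins and 11 filament or regulator genes. The mean of all probe sets called 525 genes higher. The muscle covariate called 52 genes higher and 31 lower, 0.456% of all genes. It called 1 of the 10 higher, 7 other keratins and 2 filament or regulator genes. With adjustment over all probe sets it called 1 of the 11 keratin probe sets, against 5 without a covariate. Most probe sets of the called keratins thus lost their call there. The cause was not tested.

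Reversals concerned keratins that were not called. Without 1 array the log2 fold change ran from -0.081 to 0.075 for Krt2, from -0.076 to 0.66 for Krt79, from -0.15 to 0.53 for Krt23 and from -0.13 to 0.017 for Krt76. Krt2 was at -0.0021 with array weights, and Krt23 at -1.12 with the muscle covariate. The variance prior from 1 probe set per gene, chosen after seeing the data, changed no call among the 10. Ddx3y had no probe set of its own, so the Y-linked mean used Eif2s3y and Kdm5d. No paired analysis was possible because the labels do not say which arrays share a litter. Signals near the top (Krt1, Krt10) or the bottom (Krt2, Krt76) of the scale limit what a difference there can show.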

Other observations

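The hair sheath keratins Krt25, Krt27 and Krt71, named here after their values were seen, were highest in GR-/- 17. The inner root sheath keratin Krt72 did not stand apart there, at 6.82 log2 against 6.68 to 6.82 in the other GR-/- arrays. Krt25 read 11.89 log2 in GR-/- 17, 5.54 to 7.86 in the other GR-/- arrays and 5.98 to 6.73 in GR+/+ arrays. Krt27 read 10.03 in GR-/- 17, 5.91 to 6.11 in the other GR-/- arrays and 5.47 to 5.86 in GR+/+ arrays. Krt71 read 10.02 in GR-/- 17, 6.20 to 6.84 in the other GR-/- arrays and 6.21 to 6.46 in GR+/+ arrays. Krt27 was higher in all 4 GR-/- arrays than in any GR+/+ array. None of Krt25, Krt27 and Krt71 was called between genotypes, with adjusted p of 0.49, 0.397 and 0.486 by limma. With the muscle covariate all 3 were called higher, at 5.21 (adjusted p = 0.0485), 4.07 (0.038) and 3.45 (0.038), in a fit that leans on GR-/- 17. Of the keratins outside the 10, Krt73, Krt35, Krt75 and Krt26 were the other 4 called in it, at 1.69 to 3.20. That fit called 0.456% of all genes. Krt6b read 7.39 in GR-/- 17, 4.42 to 5.70 in the other GR-/- arrays and 6.51 to 8.24 in GR+/+ arrays.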
